A study of Rattus norvegicus with 320 samples.

Results

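MicroRNA (miRNA) levels in testis tissue of male Fischer 344 rats were compared between 6 and 21 weeks of age. All testis libraries of these ages were taken by their labels for organ, sex and age, 4 libraries at each age and 8 of the 320 libraries of the series, and all 616 miRNAs of the count table entered. The series maps miRNAs over the organs of female and male rats from the juvenile to the aged animal, and the question here is which miRNAs of the testis differ between the adolescent and the adult rat. The rats were inbred, were kept in pairs under standard conditions and received no treatment that the labels name. RNA was taken from ground organ tissue, so a library mixes germ cells with Sertoli, Leydig, peritubular, vascular and blood cells. The labels call the 4 libraries of an age replicates, each from its own rat.

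The testis makes sperm in the seminiferous tubules, where spermatogonia divide, enter meiosis and mature through spermatids, held by Sertoli cells and wrapped by contractile peritubular myoid cells. Between the tubules lie Leydig cells, which make testosterone, with vessels, macrophages and connective tissue. A miRNA is a short RNA that guides Argonaute proteins to messenger RNAs, mainly through its seed, the bases 2 to 8 from its 5′ end, and lowers their translation or stability. The miR-34 and miR-449 family and a large cluster on the X chromosome are known from meiotic and later germ cells.

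The total count on miRNAs at week 6 was 1070751, 1115632, 734282 and 1046237 in replicates 1 to 4. At week 21 it was 1093929, 1187665, 1245069 and 1413760. A count of 3, used as the floor of detection, equals 4.09 CPM (counts per 1000000 counts of the library) in the smallest and 2.12 CPM in the largest library, and such floors cover counting error only, since the libraries carry no molecular identifiers in the labels. At least 1 miRNA family that is abundant in many tissues was not analysed here, so totals, CPM, shares and ranks hold only among the 616 miRNAs of the count table. Between 501 and 541 of these had a count in each library. The total did not pass an exact two-sided permutation test between the ages (p = 0.0571, adjusted over 4 library properties 0.114), where 0.0286 is the smallest p that 4 against 4 libraries can give. Pearson's r of log levels across miRNAs, which are not independent replicates, averaged 0.979 between week 6 libraries, 0.985 between week 21 libraries and 0.977 between the ages. Week 6 pairs ran from 0.977 to 0.989, the highest being replicates 1 and 2. They overlapped with pairs between the ages, which ran from 0.970 to 0.982.

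The organ label was checked against miRNAs that define testis. The lowest testis library held 118131 CPM of the germ cell miRNA miR-34c-5p, and the highest of the 71 libraries of other male organs at these ages held 5036 CPM. The Sertoli cell miRNA miR-202-5p was at 7018 CPM or more in testis and at most 101 CPM elsewhere. A list of 26 miRNAs of striated muscle, liver and neurons, foreign to testis, summed to between 2348 and 2920 CPM in testis, against up to 355985 CPM in another organ, and its most abundant member was miR-192-5p. Of its 24 members with a count, 0 were called between the ages by edgeR's quasi-likelihood test (2 lower and 0 higher at an unadjusted p under 0.05, 0 by DESeq2). The other 2, miR-1-5p and miR-133b-5p, had a count of 0 in all 8 libraries. The median log2 fold change of the list was 0.12, or -0.16 by library totals.

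Week 6 replicate 4 stood apart from the other libraries in epithelial miRNAs. The 13 epithelial miRNAs, led by miR-203a-3p and with miR-200a, miR-200b, miR-141 and miR-205 among them, summed to 932, 687, 897 and 3477 normalised CPM at week 6 and to 757, 883, 601 and 946 at week 21, where normalised CPM are CPM of a library total scaled by edgeR's trimmed mean of M-values (TMM). The miR-183 cluster, with miR-182 as its most abundant member, showed the same library on top, at 317, 191, 443 and 1880 against 283, 299, 200 and 344. In edgeR, 0 members of either list were called between the ages. At an unadjusted p under 0.05, 4 epithelial miRNAs and 1 of the miR-183 cluster were lower, and DESeq2 called 1 and 0. The log2 fold change of miR-200a-3p was -1.89 with all libraries and -0.43 without that library, and that of miR-141-3p was -0.99 and 0.34. The median log2 fold change was -0.99 for the epithelial list and -1.30 for the miR-183 cluster, with week 6 replicate 4 included. Without it, the 4 members of the cluster were at -0.22 (miR-182), 0.09 (miR-183-5p), 1.22 (miR-96-5p) and -1.88 (miR-183-3p). Of the epithelial list, miR-200c-3p was then at 0.00, miR-200b-3p at -0.53 and miR-429 at -0.50. Without week 6 replicate 4, 21 miRNAs in place of 27 were called higher and 16 in place of 21 lower.

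A library holds shares of a fixed number of reads, and there was no spike-in, so all levels are relative to the other miRNAs of the library. In week 21 replicates 1 to 4, miR-143-3p took 13.7%, 16.1%, 17.5% and 21.9% of all counts, and at week 6 it took 11.3%, 10.6%, 11.4% and 13.4%. TMM factors, which take such dominant miRNAs out of the scale, were 1.21, 1.16, 1.08 and 0.992 at week 6 and 0.989, 0.951, 0.875 and 0.812 at week 21. The ages did not overlap in them (exact permutation p = 0.0286, adjusted 0.114). Scaling by the library total alone moved log2 fold changes by a median of -0.29. The median of all tested miRNAs moved from -0.00 to -0.28. The split of calls moved from 27 higher and 21 lower (56.3% higher) to 5 higher and 40 lower (11.1% higher).

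From week 6 to week 21, miRNAs of the imprinted Dlk1-Dio3 region and 3 members of the miR-181 family fell in testis. Higher in the adult were 3 members of the miR-29 family, miR-101a-3p, miR-322-5p and miR-195-5p, miR-143-3p and miR-145-5p of smooth muscle and peritubular cells, and a few scarce miRNAs led by miR-488-3p. Of the 600 miRNAs with a count in the 8 libraries, 27 (4.5%) were called higher and 21 (3.5%) lower at an adjusted p under 0.05, in edgeR, with p adjusted by Benjamini and Hochberg's method over all 600. Of the 48, 10 rose and 13 fell at least 2-fold, 46 had normalised levels that did not overlap between the ages, and 24 had a mean of at least 100 counts. Non-overlapping levels were seen for 95 of the 600 tested (15.8%). By CPM of the library total, 32 of the 48 did not overlap, beside 98 of the 600. In bulk tissue, fewer cells of a type and less miRNA per cell cannot be told apart. Leaving out each library in turn, 17 of the 48 were called in all 8 fits, 9 of them higher and 8 lower. Every one of the 48 kept its sign, but they were chosen in these same libraries, so that is no independent support.

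**Figure D1:**
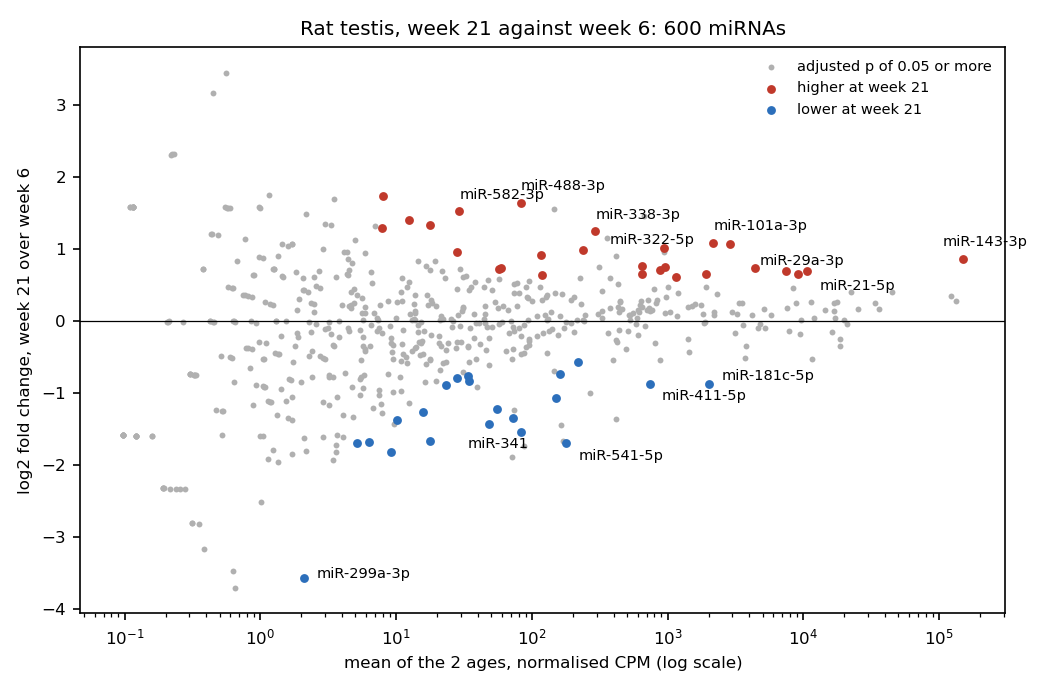
Each point is one of the 600 tested miRNAs, with its mean normalised CPM on a log axis and its log2 fold change from week 6 to week 21 on the vertical axis; red miRNAs rose and blue ones fell by edgeR's test. Apart from miR-143-3p, at the right edge, the called miRNAs lie below the most abundant ones.

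Sequencing lane was partly tied to age. One lane, by the study's own sample table, held week 6 replicates 1 and 2 and week 21 replicate 2, and no other lane held testis libraries of both ages. Fitted with all 16 testis libraries of the 4 ages and lane as a term, 0 were called higher and 2 lower, miR-341 and miR-409a-3p, with 29 and 46 at an unadjusted p under 0.05 in edgeR. The same 16 libraries without lane gave 10 higher and 13 lower in edgeR, so the counts with lane hold 2 changes of the fit. Testis contrasts from a fit of all male organs, chosen after seeing the data, gave 27 and 16 without lane and 30 and 14 with it. DESeq2, on the 8 libraries without lane, called 31 and 27.

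The Dlk1-Dio3 region carries a long series of miRNAs that are transcribed from the maternal chromosome, are abundant in fetal tissue and brain and are tied to growth. Of 81 tested miRNAs listed for it, 11 were called by edgeR, all lower, beside 3.5% lower over all miRNAs. The log2 fold change was below 0 for 73 of the 81, and for 305 of all 600. Its median was -0.96 beside -0.00 over all tested. Members of one region are not independent replicates, and 56 of them had a mean under 10 counts. Of those 56, 50 were below 0 and 1 was called. Of the 25 with a mean of at least 10 counts, 23 were below 0 and 10 were called. For 10 members with no count at one age the fitted value depends on the prior count, and without them the median was -0.87. The summed level of the list was 7556, 8420, 6450 and 7525 normalised CPM at week 6 and 5019, 5214, 5113 and 4688 at week 21. All week 21 libraries were below all week 6 libraries.

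Most of that sum was miR-127-3p, which lies antisense to the imprinted gene Rtl1. It was at 4387, 5137, 3557 and 4260 normalised CPM at week 6 and at 2912, 3325, 3142 and 2844 at week 21, and the ages did not overlap. Its log2 fold change was -0.50 with an adjusted p of 0.0504 in edgeR, just short of the threshold.

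Among the called members, miR-411-5p was at 846, 950, 905 and 1104 normalised CPM at week 6 and at 495, 489, 555 and 546 at week 21. The 4 adult libraries lay close together and well below the adolescent ones. It fell by 0.87 on the log2 scale (standard error, SE, 0.14, n = 4 per age, edgeR adjusted p = 0.00276). Farther along the region, miR-541-5p had 190, 174, 389 and 337 at week 6 and 80.4, 100, 101 and 53.1 at week 21. Week 6 split into 2 lower and 2 higher libraries, all above week 21. It fell by 1.70 (SE 0.29, adjusted p = 0.00367), and by 0.86 within the lane that held both ages, whose 2 week 6 libraries are the lower ones.

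The small miR-341, made of repeats of one motif and known from rodents, was at 117, 128, 116 and 137 normalised CPM at week 6 and at 27.7, 38.1, 54.2 and 51.4 at week 21. The highest adult value, 54.2, was far below the lowest adolescent one, 116. Its log2 fold change was -1.54 (SE 0.21, edgeR adjusted p = 0.00175). For miR-434-5p, which like miR-127 lies antisense to Rtl1, the values were 103, 100, 110 and 105 at week 6 and 25.9, 46.0, 46.8 and 46.2 at week 21. Week 21 replicate 1 was the lowest, and the ages did not overlap. The fold change was -1.34 (SE 0.20, adjusted p = 0.00175).

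Elsewhere in the region, miR-300-3p was at 81.2, 79.5, 69.6 and 80.9 normalised CPM at week 6 and at 27.7, 30.1, 34.0 and 41.8 at week 21, and miR-409a-3p at 65.8, 79.5, 63.3 and 71.3 and at 20.3, 17.7, 24.8 and 40.9. Both had tight adolescent values and no overlap. They fell by 1.22 (SE 0.19, edgeR adjusted p = 0.00175) and 1.43 (SE 0.25, adjusted p = 0.00369). The calls of miR-411-5p, miR-541-5p, miR-341, miR-434-5p, miR-300-3p and miR-409a-3p held whichever library was left out.

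The other 5 called members were scarce. Log2 fold changes were -1.26 for miR-379-5p, -1.82 for miR-379-3p, -1.66 for miR-411-3p and -1.37 for miR-380-3p, with edgeR adjusted p between 0.0245 and 0.0421. Levels of miR-379-3p overlapped between the ages, since week 6 replicate 3 was at 3.80 normalised CPM beside 5.55 in the highest week 21 library. miR-299a-3p had 6, 3, 4 and 4 counts at week 6 and 0, 1, 0 and 0 at week 21, too few for a fold change. Within the lane with both ages, the log2 fold change of miR-411-3p was -0.80. Without week 6 replicate 3 its call was lost. That of miR-380-3p was lost without week 6 replicate 1 or 4 or week 21 replicate 2 or 3, and that of miR-379-5p without week 6 replicate 3 or 4 or week 21 replicate 1, 2 or 3. That of miR-379-3p held only without week 6 replicate 3, and that of miR-299a-3p was lost without week 6 replicate 1 or week 21 replicate 1 or 3.

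Not every member went down. miR-136-5p was at 69.8 ± 21.4 normalised CPM at week 6 and 91.9 ± 18.2 at week 21 (SD, n = 4 each) and was not called. miR-434-3p, at 649 and 567, and miR-410-3p, at 178 and 111, were lower at week 21 but not called. On the rat assembly GRCr8, the listed members with a RefSeq position lay within chr6:133518418-134579828, except both arms of miR-653, which are on chromosome 4 and were not called. On that stretch, 81 of the 82 tested miRNAs were on the plus strand. There, 5 miRNAs outside the list included, 11 were called by edgeR, all lower, and the median log2 fold change was -0.96. Of the 20 called-lower miRNAs with a position, 11 were on chromosome 6, which carried 98 of the tested miRNAs.

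The 6 most abundant called members have 6 different seeds, and all lie on the plus strand. Their mature sequences are shown because these members were called, 5′ to 3′ with the seed in capitals.
miR-541-5p: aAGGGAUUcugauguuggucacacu
miR-411-5p: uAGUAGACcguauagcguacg
miR-341: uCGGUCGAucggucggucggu
miR-434-5p: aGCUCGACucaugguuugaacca
miR-300-3p: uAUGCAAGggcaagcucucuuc
miR-409a-3p: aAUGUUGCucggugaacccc

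A second fall was that of 3 members of the miR-181 family, broadly expressed miRNAs known best from lymphocyte development. Of 10 members, 3 were called by edgeR, all lower, beside 3.5% lower over all miRNAs, and the family median was -0.24. Its most abundant member, miR-181a-5p, was at 21296 ± 6191 and 20680 ± 4466 normalised CPM (SD, n = 4 each) and was not called. For miR-181c-5p the values were 2150, 2522, 2639 and 3191 at week 6 and 1071, 1310, 1598 and 1772 at week 21. All adult libraries were below all adolescent ones. It fell by 0.87 (SE 0.18, adjusted p = 0.0124), and miR-181d-5p, encoded beside it, by 0.73 (SE 0.19, adjusted p = 0.0310). The third, miR-181a-2-3p, is the other arm of one of the hairpins of miR-181a, and fell by 1.07 (SE 0.21, adjusted p = 0.00950) from 174, 187, 210 and 248 to 83.2, 74.3, 94.6 and 138. The 3 had no overlap between the ages, and the calls of miR-181c-5p and miR-181a-2-3p held whichever library was left out, while that of miR-181d-5p was lost without week 6 replicate 3 or 4 or week 21 replicate 1, 2 or 3.

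The members with the seed ACAUUCA are shown because 2 of the 4 fell, and these 2 lie next to each other on the plus strand, at chr19:40888314-40888335 and chr19:40888484-40888506 of GRCr8.
miR-181a-5p: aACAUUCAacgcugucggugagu
miR-181b-5p: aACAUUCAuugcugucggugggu
miR-181c-5p: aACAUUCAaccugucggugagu
miR-181d-5p: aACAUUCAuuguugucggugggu
Values of miR-181b-5p were 1038 ± 192 and 711 ± 82.9 normalised CPM (SD, n = 4 each), without overlap, at a log2 fold change of -0.55 and an edgeR adjusted p of 0.0546.

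The miR-17~92 cluster and its relatives are known from dividing cells, spermatogonia among them. Of 24 members, 2 were called by edgeR, both lower, beside 3.5% lower over all miRNAs, and the median was -0.04. The 2 were miR-106b-5p, encoded in an intron of the replication gene Mcm7, and miR-17-1-3p. miR-106b-5p was at 286, 282, 255 and 228 normalised CPM at week 6 and at 174, 181, 178 and 177 at week 21. The adult libraries lay within a narrow band under the adolescent ones, and the log2 fold change was -0.57 (SE 0.15, adjusted p = 0.0310). That call was lost without week 6 replicate 1, 2 or 3 or week 21 replicate 1, 2 or 3. The call of miR-17-1-3p, at -0.88 (SE 0.25, adjusted p = 0.0448), was lost without week 6 replicate 1 or 2 or any one week 21 library. The most abundant member, miR-92a-3p, was at 19841 and 20173 normalised CPM on average.

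Other falls outside the lists were chosen for mention after their values were seen. miR-466b-2-3p and miR-466b-4-3p, of a rodent cluster, have one and the same sequence in the table, aUAUACAUacacacauacaca with the seed in capitals, so they count as one signal, and how reads were divided between them is not given in the sources used here. They fell by 0.84 and 0.76 (edgeR adjusted p = 0.0333 and 0.0260). Near them on chromosome 17, miR-466c-3p fell by 1.69 with overlapping levels, at 10.1, 9.26, 2.53 and 9.63 normalised CPM against 1.85, 3.54, 2.75 and 1.74. The call of miR-187-3p, at -0.79 (SE 0.19, adjusted p = 0.0227), was lost without week 6 replicate 4 or week 21 replicate 3. Calls of miR-466b-2-3p were lost without week 6 replicate 1 or 2 or week 21 replicate 2 or 3, those of miR-466b-4-3p without week 6 replicate 1 or week 21 replicate 2 or 3, and that of miR-466c-3p held only without week 6 replicate 3.

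**Figure D2:**
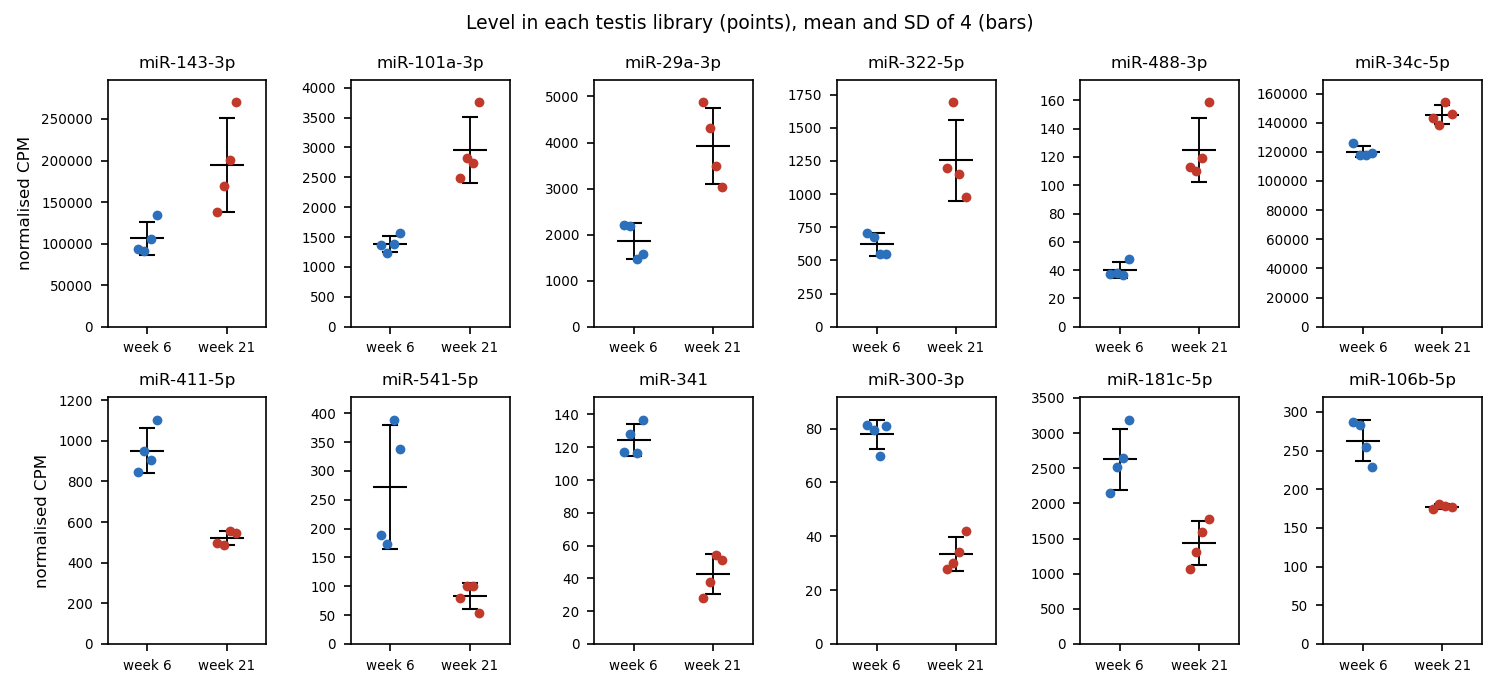
Normalised CPM in each of the 4 week 6 libraries (blue) and 4 week 21 libraries (red), from replicate 1 at the left to 4, with mean and SD as black bars and every axis from 0. The top panels show miRNAs that rose, and miR-34c-5p, which was not called; the bottom panels show miRNAs that fell, and in no panel do the ages overlap.

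The miR-34 and miR-449 family shares the seed GGCAGUG and is needed for sperm formation and for cells with motile cilia. Its 8 members summed to 151209, 146378, 148999 and 151394 normalised CPM at week 6 and to 176446, 177749, 198130 and 189743 at week 21. Every adult library was above every adolescent one on that scale, while as shares of the library total the family took 16.6 ± 1.38% and 16.8 ± 0.939% (SD, n = 4 each). Of the 8, 1 was called by edgeR, a higher one, beside 4.5% over all miRNAs, with a median of 0.32, or 0.02 by library totals.

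The called member was miR-34b-5p, at 7149, 6812, 4275 and 4592 normalised CPM at week 6 and 10333, 8342, 8726 and 9713 at week 21. Weeks did not overlap on this scale and did as shares of the total. It rose by 0.70 (SE 0.19, edgeR adjusted p = 0.0333), and by 0.26 within the lane with both ages. The call held only without week 6 replicate 1 or 2. Its neighbour miR-34c-5p, the second most abundant miRNA of these libraries, was at 125771, 117617, 118005 and 119082 at week 6 and 143455, 138590, 153912 and 146144 at week 21. Its log2 fold change of 0.28 (SE 0.15, adjusted p = 0.300) was not called, although the normalised values did not overlap. miR-449a-5p overlapped, at 13728, 17085, 22278 and 23317 against 18100, 25874, 29577 and 27937.

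Both miR-34 genes lie on the minus strand of chromosome 8, miR-34b-5p at chr8:60306657-60306679 and miR-34c-5p at chr8:60306133-60306155 of GRCr8. Their sequences and that of miR-449a-5p, which lies on chromosome 2, are shown because they share the seed and 1 of them was called.
miR-34b-5p: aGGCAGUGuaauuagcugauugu
miR-34c-5p: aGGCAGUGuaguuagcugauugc
miR-449a-5p: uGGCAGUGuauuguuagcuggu

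At the other ages of the series the family was scarce in testis. Its mean share of counts was 0.0998 ± 0.0111% at week 2 and 0.0955 ± 0.109% at week 104 (SD, n = 4 each). The list of the germ cell cluster on the X chromosome took 2.07 ± 0.541% at week 2, 8.33 ± 1.98% at week 6, 7.09 ± 1.60% at week 21 and 0.222 ± 0.206% at week 104 (SD, n = 4 each). No test was made of weeks 2 and 104.

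The list made for that cluster, beside the gene Fmr1, had 29 members tested, of which edgeR called 1, a higher one, beside 4.5% over all miRNAs. At an unadjusted p under 0.05, 6 of the list were higher, and DESeq2 called 3. On the stretch of chromosome X that holds the cluster, 29 miRNAs were tested, 4 of them outside the list, and edgeR called 0. The median of the list was 0.13, or -0.16 by library totals. The summed level was 82647, 86703, 58671 and 70165 normalised CPM at week 6 and 91863, 63871, 87379 and 68472 at week 21, and the ages overlapped. The called member, miR-879-5p, is a minor one, and RefSeq places its hairpin, by the 3p arm, on chromosome 4. It was at 89.7, 88.7, 58.2 and 82.9 at week 6 and 146, 207, 143 and 114 at week 21, without overlap, and rose by 0.93 (SE 0.21, adjusted p = 0.0188). The call was lost without week 6 replicate 3 or week 21 replicate 2 or 3. The major members miR-871-3p, with a log2 fold change of -0.34, miR-743b-3p, at 16719 and 17199, and miR-881-3p, at 10289 and 12370 on average, were not called.

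Sertoli cells were followed by miR-202. Its 2 arms summed to 10948, 11900, 8531 and 8885 normalised CPM at week 6 and 9407, 7416, 9465 and 9222 at week 21. The ages overlapped and the median was -0.13, with 0 called by edgeR, 0 at an unadjusted p under 0.05 and 0 by DESeq2. The list of stem cell and spermatogonial miRNAs holds early embryonic families and miRNAs described in undifferentiated spermatogonia. In it, 1 of 15 was called higher by edgeR, miR-21-5p, beside 4.5% over all miRNAs. The list median was 0.29, or 0.03 by library totals. miR-21-5p also marks inflamed and stressed tissue. It was at 7473, 7531, 8631 and 8784 at week 6 and 11634, 11795, 13390 and 15725 at week 21. With no overlap, it rose by 0.70 (SE 0.15, adjusted p = 0.0152), a call lost without week 21 replicate 3.

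Turning to the miRNAs of cell cycle exit, the seed AGCAGCA is shared by miR-15, miR-16, miR-195, miR-497 and miR-322, which restrain cyclins and their kinases. Of the 6 tested miRNAs with this seed, edgeR called 2, both higher, beside 4.5% higher over all miRNAs, and the median of the 6 was 0.44. miR-322-5p, from an X-linked cluster with miR-503, was at 706, 679, 544 and 550 normalised CPM at week 6 and 1196, 1691, 1149 and 978 at week 21. The lowest adult library was above the highest adolescent one on this scale, but not as a share of the library total. It rose by 1.02 (SE 0.18, adjusted p = 0.00410). miR-195-5p was at 428, 448, 544 and 507 at week 6 and at 775, 837, 828 and 848 at week 21, with little spread within an age. Its rise was 0.77 (SE 0.14, adjusted p = 0.00410). Both calls held whichever library was left out.

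The 6 miRNAs with this seed are shown to let the called ones be set beside the others, in the order of their log2 fold changes, which were 1.02, 0.77, 0.61, 0.27, 0.15 and 0.14.
miR-322-5p: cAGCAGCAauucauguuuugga
miR-195-5p: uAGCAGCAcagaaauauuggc
miR-497-5p: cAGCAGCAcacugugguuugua
miR-16-5p: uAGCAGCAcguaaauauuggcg
miR-15b-5p: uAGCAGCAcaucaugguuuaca
miR-15a-5p: uAGCAGCAcauaaugguuu
The most abundant of them, miR-16-5p, was at 16184 and 19489 normalised CPM on average and was not called. Over the list of both arms of miR-15, miR-16, miR-195 and miR-497, 1 of 10 was called higher by edgeR, beside 4.5% over all miRNAs. The median of that list was 0.34, or 0.05 by library totals.

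In the miR-322 and miR-503 cluster, 2 of 12 members were called by edgeR, both higher, beside 4.5% higher over all miRNAs. The cluster median was 0.22, or -0.06 by library totals. All 12 lie on the minus strand within chrX:137720952-137726219 of GRCr8. The second called member, miR-450a-5p, was at 762, 778, 501 and 606 normalised CPM at week 6 and 1356, 1173, 970 and 843 at week 21. It rose by 0.71 (SE 0.19, adjusted p = 0.0333) without overlap, and the call held only without week 6 replicate 2 or week 21 replicate 4. The cluster did not move as one. Its most abundant member, miR-351-5p, was at 4248 ± 496 and 3336 ± 265 (SD, n = 4 each), a log2 fold change of -0.35 that was not called.

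The miR-29 family represses collagens and other genes of the extracellular matrix, and DNA methyltransferases. All 3 members of the leading arm rose by edgeR's test, of 7 tested in the family, beside 4.5% called higher over all miRNAs. The family median was 0.99. miR-29a-3p was at 2218, 2178, 1474 and 1579 normalised CPM at week 6 and 4871, 4313, 3482 and 3036 at week 21. Both ages held 2 higher and 2 lower libraries, replicates 1 and 2 above 3 and 4, with a gap between the ages. It rose by 1.08 (SE 0.19, adjusted p = 0.00410).

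miR-29c-3p was at 207, 165, 133 and 130 normalised CPM at week 6 and 326, 398, 284 and 252 at week 21, and rose by 0.99 (SE 0.20, edgeR adjusted p = 0.0105). For miR-29b-3p, whose sequence is made from 2 genes, the values were 104, 109, 70.9 and 84.8 and 143, 159, 142 and 133, a rise of 0.64 (SE 0.18, adjusted p = 0.0421). None of the 3 overlapped between the ages on this scale, and all 3 did as shares of the library total. The first 2 calls held in every fit that left out 1 library, and the third held only without week 6 replicate 2. miR-29a and 1 copy of miR-29b lie on the minus strand of chromosome 4, at chr4:60617968-60617989 and chr4:60618342-60618364, and miR-29c with the other copy on the plus strand of chromosome 13, at chr13:109099412-109099433 and chr13:109098882-109098904 of GRCr8. The 3 sequences are printed because both loci and one seed are involved.
miR-29a-3p: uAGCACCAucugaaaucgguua
miR-29c-3p: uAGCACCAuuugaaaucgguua
miR-29b-3p: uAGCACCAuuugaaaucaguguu

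Smooth muscle and peritubular cells are marked by miR-143 and miR-145, made from one transcript. The summed level of their 4 arms was 95579, 93395, 107062 and 136279 normalised CPM at week 6 and 141644, 171937, 202973 and 272065 at week 21. No adult library fell into the adolescent range. By edgeR, 2 of the 4 arms were called, both higher, beside 4.5% higher over all miRNAs, with a median of 0.74. Nearly all of the sum was miR-143-3p, the most abundant miRNA of the comparison, at 93882, 91510, 105815 and 134743 at week 6 and 138497, 168889, 200549 and 269943 at week 21. The ages nearly met between week 6 replicate 4 and week 21 replicate 1.

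miR-143-3p rose by 0.87 (SE 0.22, edgeR adjusted p = 0.0310), and was the single one of the 10 most abundant miRNAs to be called. Its call was lost without week 6 replicate 1, 2 or 3 or week 21 replicate 2, 3 or 4, with log2 fold changes between 0.62 and 1.00 over the 8 fits. miR-145-5p was at 991, 1072, 850 and 737 at week 6 and 1541, 1341, 1362 and 1360 at week 21. It rose by 0.62 (SE 0.15, adjusted p = 0.0240), and by 0.38 within the lane with both ages. The call was kept only without week 6 replicate 2 or week 21 replicate 4. The other arm, miR-145-3p, was at 651, 774, 357 and 757 and at 1548, 1675, 1008 and 726, with overlap, and did not reach the threshold (log2 fold change 0.96, adjusted p = 0.0502). The 2 hairpins lie on the minus strand of chromosome 18, the 2 called arms at chr18:57371373-57371394 and chr18:57370033-57370055.
miR-143-3p: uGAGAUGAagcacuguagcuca
miR-145-5p: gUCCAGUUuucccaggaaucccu

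Markers of the other cell types of the interstitium and of blood were set beside these, and their part in the results was not tested. Endothelial miRNAs, the 2 arms of miR-126a from an intron of Egfl7, summed to 4434, 4628, 3464 and 4722 normalised CPM at week 6 and 6956, 9604, 5842 and 4995 at week 21, without overlap on this scale. 1 of the 2 was called higher by edgeR, beside 4.5% over all miRNAs. This was miR-126a-5p, the more abundant, at 0.75 (SE 0.21, adjusted p = 0.0495), and at 1.23 within the lane with both ages. When 1 library was left out, that call held only without week 21 replicate 4, with log2 fold changes between 0.45 and 0.83. The list median was 0.57. Leukocyte miRNAs summed to 1268, 1292, 986 and 1173 at week 6 and 1617, 1960, 1620 and 1490 at week 21, again without overlap on this scale. As shares of the library total, the ages overlapped for both the endothelial and the leukocyte sums.

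Of the 8 leukocyte miRNAs, 2 were called by edgeR, both higher, beside 4.5% higher over all miRNAs, and the median was 0.67. miR-155-5p, induced in activated lymphocytes and macrophages, was at 20.1, 19.3, 16.5 and 19.3 normalised CPM at week 6 and at 31.4, 35.4, 37.6 and 43.6 at week 21. It rose by 0.97 (SE 0.20, adjusted p = 0.0111) whichever library was left out. The myeloid miR-223-3p was at 49.5, 46.3, 45.6 and 34.7 and at 63.8, 76.1, 77.1 and 78.4, and rose by 0.74 (SE 0.18, adjusted p = 0.0240), a call kept only without week 6 replicate 2 or week 21 replicate 1. The most abundant of the list, miR-142-5p, was at 850 ± 90.3 and 1179 ± 166 (SD, n = 4 each) and was not called.

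The red cell list, with 5 members led by miR-486, had 0 called by edgeR (2 lower at an unadjusted p under 0.05, 0 by DESeq2) and a median of -0.11. Its sums were 10159, 11926, 19840 and 20318 normalised CPM at week 6 and 11116, 15542, 19448 and 28127 at week 21. Mesenchymal miRNAs, 4 members led by miR-199a-3p, had 0 called by edgeR (1 lower at an unadjusted p under 0.05, 0 by DESeq2) and a median of -0.19, with sums of 2318, 2119, 1771 and 2153 against 1961, 1839, 1690 and 1631. Each of the defining miRNAs miR-451-5p, miR-144-3p, miR-150-5p, miR-142-3p and miR-214-3p had a count in all 8 libraries.

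**Figure D3:**
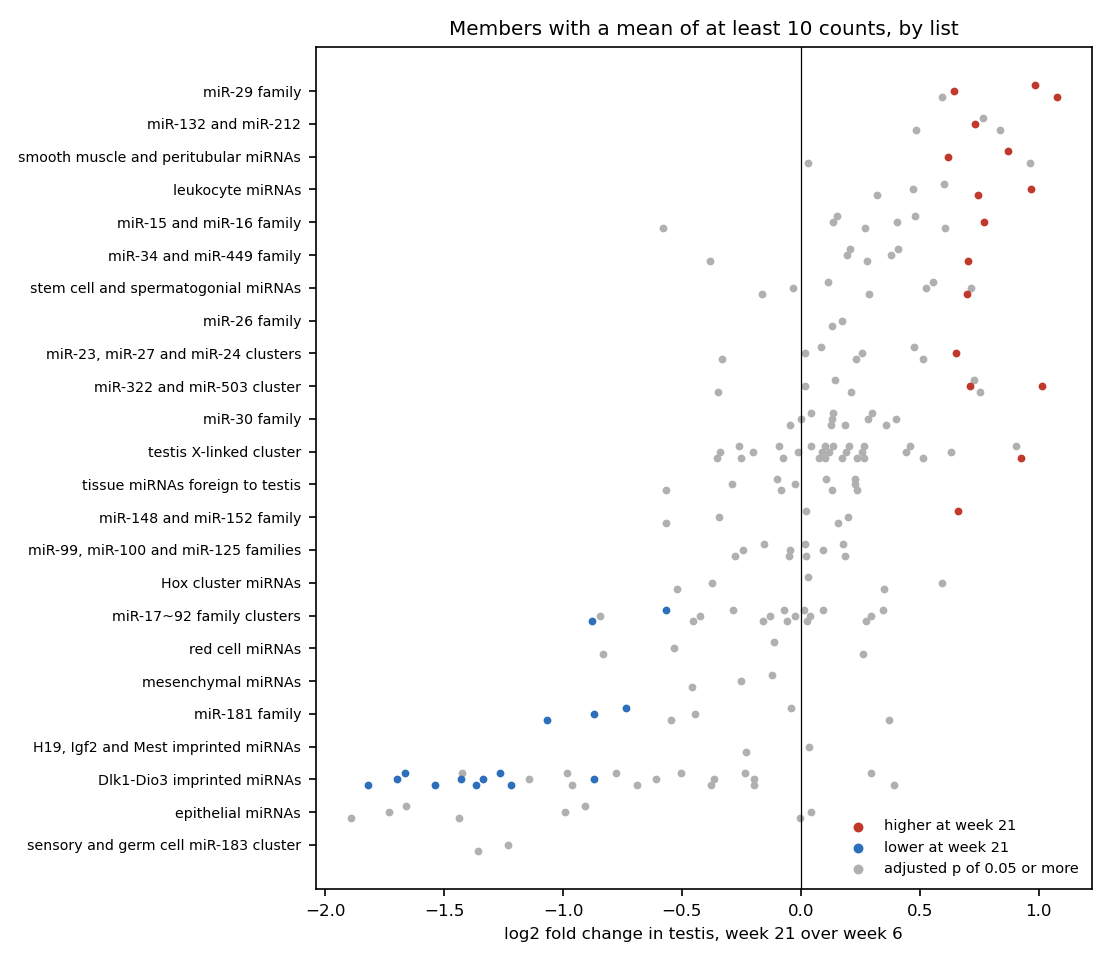
Each point is a miRNA with a mean of at least 10 counts, placed by its log2 fold change in testis from week 6 to week 21 (horizontal axis) in the lists it belongs to; red rose, blue fell, grey was not called by edgeR's test. Blue points are mostly in the Dlk1-Dio3 list, and the 3 red points of the miR-29 family lie together at the right.

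Several rises were of single miRNAs of broad expression. miR-101a-3p, which restrains the histone methyltransferase Ezh2, was at 1372, 1241, 1376 and 1561 normalised CPM at week 6 and 2497, 2822, 2746 and 3754 at week 21. The lowest adult value was well above the highest adolescent one, also as a share of the library total. It rose by 1.09 (SE 0.16, edgeR adjusted p = 0.00175), the call held in every fit that left out 1 library, and it was 1 of the 5 miRNAs still called higher when libraries were scaled by their totals. The other 4 were miR-488-3p, miR-582-3p, miR-582-5p and miR-338-3p.

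The abundant miR-148a-3p, which restrains DNA methyltransferases, was at 7044, 6759, 6714 and 7951 normalised CPM at week 6 and 10314, 10256, 10638 and 13848 at week 21. It rose by 0.66 (SE 0.15, edgeR adjusted p = 0.0179) without overlap. miR-378a-3p, from an intron of the metabolic coactivator gene Ppargc1b, was at 1415, 1363, 1621 and 1532 and at 2325, 1940, 2355 and 2725, and rose by 0.66 (SE 0.14, adjusted p = 0.0157), also without overlap. The first call was lost without week 6 replicate 1 or 3 or week 21 replicate 3, the second without week 6 replicate 1 or week 21 replicate 3. In the miR-148 and miR-152 list, 1 of 6 was called higher, beside 4.5% over all miRNAs, with a median of 0.09, or -0.19 by library totals.

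Of the miR-23, miR-27 and miR-24 clusters, 1 of 10 was called higher by edgeR, beside 4.5% over all miRNAs, and the median was 0.24, or -0.03 by library totals. The most abundant, miR-27b-3p, was not called (log2 fold change 0.25). The called one was miR-27a-3p, at 527, 507, 420 and 550 normalised CPM at week 6 and 779, 858, 814 and 700 at week 21. It rose by 0.65 (SE 0.14, adjusted p = 0.0157), a call lost without week 6 replicate 3 or week 21 replicate 2 or 3. miR-132 and miR-212 are made from one transcript that the factor CREB induces. Of their 4 arms, 1 was called higher, beside 4.5% over all miRNAs. This was miR-132-3p, at 54.9, 38.6, 34.2 and 44.3 at week 6 and 73.0, 69.0, 67.9 and 77.5 at week 21. It rose by 0.73 (SE 0.19, adjusted p = 0.0310), a call kept only without week 6 replicate 1 or 4. The 4 arms summed to 93.6, 76.4, 60.8 and 83.8 against 149, 128, 127 and 124, without overlap, with a median of 0.75.

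The largest rises among called miRNAs were of scarce miRNAs outside all lists, chosen for mention after their values were seen. miR-488-3p, from an intron of the neuronal gene Astn1, was at 37.1, 37.8, 36.7 and 48.2 normalised CPM at week 6 and 113, 110, 119 and 159 at week 21. The lowest adult value, 110, was far above the highest adolescent one, 48.2. It rose 3.13-fold, by 1.64 on the log2 scale (SE 0.19, edgeR adjusted p = 0.000553), the smallest adjusted p of the comparison.

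Both arms of miR-582, from an intron of the phosphodiesterase gene Pde4d, rose. miR-582-3p was at 13.9, 17.0, 17.7 and 11.6 normalised CPM at week 6 and 37.9, 36.3, 44.1 and 54.9 at week 21. Its log2 fold change was 1.53 (SE 0.23, edgeR adjusted p = 0.00175), and that of miR-582-5p, at 2.53 to 4.82 normalised CPM at week 6, was 1.75 (SE 0.38, adjusted p = 0.0150). Levels of neither arm overlapped. The call of the 5p arm was lost without week 21 replicate 3.
miR-488-3p: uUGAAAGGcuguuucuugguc
miR-582-3p: aACCUGUUgaacaacugaaccc
miR-582-5p: uACAGUUGuucaaccaguuacu
These 3 are shown because they had the largest rises among called miRNAs, and each has a seed of its own.

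A pair of genes on opposite strands moved in opposite directions. miR-338, from an intron of Aatk, lies on the minus strand of chromosome 10, with miR-338-3p at chr10:105796345-105796367 of GRCr8, and miR-3065-5p on the plus strand at chr10:105796345-105796364. miR-338-3p was at 221, 184, 119 and 169 normalised CPM at week 6 and 507, 482, 335 and 328 at week 21, and rose by 1.25 (SE 0.22, edgeR adjusted p = 0.00369). The other arm, miR-338-5p, rose by 1.33 (SE 0.30, adjusted p = 0.0179), lost without week 21 replicate 1. miR-3065-5p, close to the floor, was at 7.74, 9.26, 11.4 and 10.6 at week 6 and 3.70, 2.66, 1.84 and 3.48 at week 21, and fell by 1.68 (SE 0.38, adjusted p = 0.0179), lost without week 21 replicate 3. Whether the counting used strand is not given in the sources used here, so reads of the overlapping pair are uncertain. They too were chosen after their values were seen.

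The remaining called miRNAs were also outside the lists. miR-28-3p, from an intron of Lpp, rose by 0.75 (SE 0.17, edgeR adjusted p = 0.0179), and by 0.29 within the lane with both ages. Its call was lost without week 21 replicate 3 or 4. miR-7a-2-3p rose by 1.40 and miR-664-2-5p by 1.29, both under 21 normalised CPM in every library. The call of miR-7a-2-3p held only without week 6 replicate 1 or 4, and that of miR-664-2-5p in none of the 8 fits.

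Over hairpins, both arms were called for 4, miR-338, miR-379, miR-411 and miR-582, and in each both arms had the same direction. Of 36 hairpins with a called arm and both arms tested, 33 had arms of the same sign, beside 56 of the 82 hairpins with both arms at a mean of 10 counts or more. These shares cover unlike sets, since the 36 include hairpins with a scarcer arm, such as miR-541-3p at a mean of 0.5 counts. The 3 with arms of opposite sign were miR-106b, miR-181d and miR-187, each with an uncalled second arm. For miR-143, the 5p arm was at 43.9 ± 6.91 and 45.0 ± 13.1 normalised CPM (SD, n = 4 each) while the 3p arm rose. Of 506 seeds tested, 43 had a called miRNA and 4 had at least 2, those of miR-29, of miR-181c and miR-181d, of miR-322 and miR-195 and of miR-466b. The called miR-466b names have the same sequence and count as a single signal. No seed, by edgeR's calls, had members in both directions.

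Whether these changes differed from the mean change of other organs was tested directly. No other organ was tested singly, so statements below on the other organs hold for their mean. The change in testis was set against the mean change from week 6 to week 21 in 9 other organs of male rats, in one edgeR fit of testis with the 71 other libraries, from which 1 week 6 brain library that the study removed was left out. The organs came from the same rats, while this fit takes libraries as independent. Of 616 miRNAs, 25 (4.06%) changed upward in testis relative to the other organs and 2 (0.325%) downward. The other organs themselves had 61 (9.9%) higher and 116 (18.8%) lower on average. The counts depended on single libraries. They were 15, 16 and 16 upward without week 6 replicate 1, 2 or 4, 14 and 16 without week 21 replicate 3 or 4, and 13 with the removed brain library. Downward they were 5 and 7 without week 6 replicate 1 or 2, 0 without week 6 replicate 4 or week 21 replicate 3 (10 and 16 at an unadjusted p under 0.05, and 5 by DESeq2 with all libraries), and 1 without week 21 replicate 2 or 4.

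The fall of the Dlk1-Dio3 miRNAs was shared with the mean of the other organs. By that mean, 38 of the 81 were lower at week 21, beside 19.3% of all tested miRNAs, with a median of -0.90 next to -0.96 in testis. None of them was below the other organs in the test of the difference, and 1 was above, miR-136-5p. It was at 0.39 in testis and -1.16 in the other organs, with a difference of 1.66 (SE 0.34, edgeR adjusted p = 0.000797). The difference comes from the fit of all organs and need not equal the subtraction. Of the 21 miRNAs called lower in testis, 15 were also lower in the other organs. In the miR-181 list, 8 of 10 were lower in the other organs, with a median of -0.50 next to -0.24 in testis. By the test of the difference, 1 of the 10 was above and 1 below. For the miR-17~92 list, 17 of 24 were lower in the other organs, at a median of -0.40 next to -0.04 in testis, and 1 was above in that test and 0 below. The miR-29 rise was shared too. The mean change elsewhere was 1.15 for miR-29a-3p and 1.19 for miR-29c-3p, and the differences of 0.01 (SE 0.22) and -0.11 (SE 0.25) were not called.

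Other rises went beyond the mean of the other organs. Of the 27 called higher in testis, 11 were also upward in the test of the difference. Both tests use the same testis libraries, so some overlap is built in, and its value under no change was not computed. In the other organs, 8 of the 27 were higher too and 4 were lower. miR-322-5p rose by 1.02 in testis and was at -0.51 elsewhere (difference 1.62, SE 0.36, edgeR adjusted p = 0.00168), and miR-450a-5p of the same cluster at 0.71 and -0.41 (difference 1.22, SE 0.26, adjusted p = 0.00108). Together with miR-542-3p and miR-542-5p, 4 of 12 miRNAs of that cluster were upward, while 8 of the 12 were lower in the other organs. For miR-582-3p the difference was 1.94 (SE 0.30, adjusted p = 8.46e-06), the firmest of all, and for miR-488-3p it was 1.54 (SE 0.29, adjusted p = 0.000277). miR-132-3p (1.07) was also upward. The differences of miR-322-5p, miR-450a-5p, miR-136-5p, miR-582-3p, miR-582-5p, miR-488-3p and miR-132-3p were called whichever testis library was left out.

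Some miRNAs differed in that test without a call in testis itself. miR-296-5p was at 144 ± 18.6 and 188 ± 35.4 normalised CPM (SD, n = 4 each), with a mean change of -2.21 elsewhere, where its highest group mean was 26.3 CPM. The difference was 2.69 (SE 0.49, adjusted p = 0.000277). miR-298-5p, its neighbour in the imprinted Gnas region, was at 729 ± 143 and 812 ± 26.2 (SD, n = 4 each), beside -1.25 elsewhere (difference 1.51, SE 0.29, edgeR adjusted p = 0.000277). Called in testis, miR-143-3p had a difference of 0.88 (adjusted p = 0.0401) that held in 3 of the 8 fits with 1 testis library left out, and miR-101a-3p one of 0.70 (adjusted p = 0.0466) that held in 0 of them, in edgeR. With lane as a term the first was 0.69 (adjusted p = 0.105) and the second 0.46 (adjusted p = 0.156), and neither was called. The 2 downward were miR-181a-2-3p, at -0.76 (adjusted p = 0.0450), called in 3 of the 8, and miR-200a-3p, at -2.33 with week 6 replicate 4 and -1.01 (adjusted p = 0.651) without it. With the rat as a block, neither was called by edgeR (adjusted p = 0.0604 and 0.0614), nor was the difference of miR-101a-3p (0.0544).

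**Figure D4:**
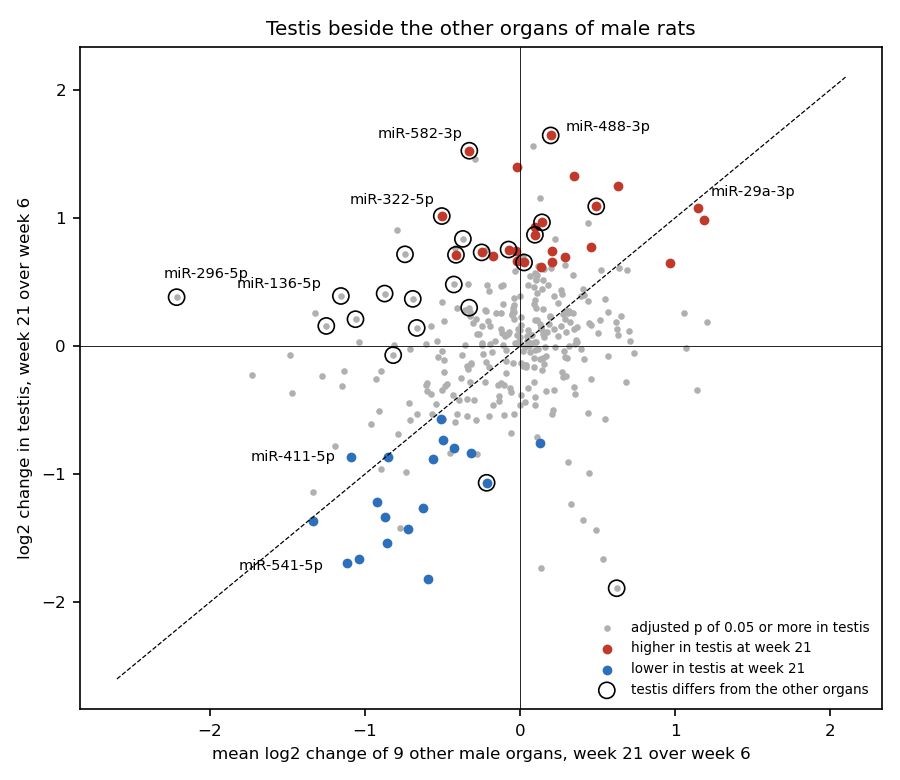
Log2 change from week 6 to week 21 in testis (vertical axis) against its mean in 9 other organs of male rats (horizontal axis) for miRNAs with a mean of at least 10 counts in testis; the dashed line marks equal change and rings mark a called difference. Blue Dlk1-Dio3 miRNAs such as miR-411-5p lie near the line, and ringed miRNAs such as miR-582-3p and miR-322-5p lie above it.

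The 10 most abundant of the 616 miRNAs were miR-143-3p, miR-34c-5p, miR-10b-5p, miR-30a-5p, miR-191a-5p, miR-22-3p, miR-26a-5p, miR-449a-5p, miR-181a-5p and miR-92a-3p. Of those without values so far, log2 fold changes were 0.35 for miR-10b-5p, 0.40 for miR-30a-5p, 0.16 for miR-191a-5p, 0.26 for miR-22-3p and 0.17 for miR-26a-5p, none called. The miR-30, miR-26, Hox cluster and miR-99, miR-100 and miR-125 lists had 0 of 11, 0 of 4, 0 of 10 and 0 of 11 members called by edgeR. At an unadjusted p under 0.05, 1, 1, 1 and 0 were higher and 0 lower, and DESeq2 called 0 in each. Their medians were 0.14, 0.25, -0.00 and 0.02. By library totals they were -0.15 for miR-30, -0.04 for miR-26 and -0.29 for the last. miR-98, whose 2 arms were tested, had 0 called by edgeR, 0 at an unadjusted p under 0.05 and 0 by DESeq2, with a median of -0.34. miR-98-5p was at 8200, 8315, 8695 and 7885 normalised CPM at week 6 and 6636, 7194, 7916 and 8297 at week 21. The imprinted miRNAs of H19, Igf2 and Mest, 4 tested, also had 0 called by edgeR, 0 at an unadjusted p under 0.05 and 0 by DESeq2, at a median of -0.91, or -0.23 without 1 member that had no count at one age. Their most abundant member, miR-335, was at only 21.8 and 22.5 normalised CPM.

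The candidate miRNA rno_miR_chrX_48878, which the rule for names takes for testis, is marked in the study's list of candidates as matching a piRNA, and which kind of small RNA its reads come from was not tested. It was at 466, 541, 172 and 240 normalised CPM at week 6 and 2054, 1197, 359 and 316 at week 21. Replicates 1 and 2 were above 3 and 4 at both ages, and the ages overlapped. Its log2 fold change of 1.46 (SE 0.53, edgeR adjusted p = 0.113) was not called, while in the fit of all male organs, an alternative chosen after seeing the data, it was called at 1.54 (adjusted p = 0.0187).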

How the data were processed

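The deposited counts of miRNA reads were made by the authors, whose processing notes name fastp 0.23.2 for trimming, Bowtie 1.3.1 for mapping and rn7 as the genome build. Columns were assigned to organ, sex, age and replicate by the series' labels, and lanes came from the study's sample table. R 4.3.3, edgeR 4.0.16 and DESeq2 1.42.0 were used. edgeR's quasi-likelihood test with TMM factors compared 4 with 4 libraries over the 600 miRNAs with a count, and every log2 fold change, SE and adjusted p in the text is edgeR's unless another tool is named. A second edgeR fit compared the testis change with the mean change in 9 other male organs. Both were tested on simulated data. Adjusted p under 0.05 was the threshold for a call. No expression filter was applied beyond a count of 1 or more in all libraries together.

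Named miRNAs were up to 12 called in each direction with a mean of at least 100 counts and CPM ranges of the ages that do not overlap (6 higher and 6 lower were found), the 10 most abundant, the most abundant and the called members of each list, and the candidate rno_miR_chrX_48878. The 27 lists and this rule were chosen with earlier results of these data known. Called miRNAs outside the lists and the 12, and those named only for the test between organs, were chosen after their values were seen. RefSeq positions on GRCr8 were matched by name for 551 of the 616 miRNAs, each with the same sequence.

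Alternatives were library size without TMM, DESeq2's size factors, DESeq2, a mean of at least 10 counts, all 16 testis libraries without and with lane, the replicate number as a block, a 2-fold limit and leaving out each library. Testis contrasts from the fit of all male organs, without and with lane, were chosen after seeing the data.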

Additional observations from a re-analysis of the deposited data

Results flagged for a closer look

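Of 162 sets of 4 libraries, 11 (6.79%) had 1 library far from the other 3 by Dixon's test, where chance marks about 1 in 20. In normalised CPM, week 21 replicate 4 stood high in miR-148a-3p (13848, the others 10256 to 10638) and in the summed miR-148 and miR-152 list (16482, the others 12499 to 12944). Week 21 replicate 1 stood high in miR-145-5p (1541, the others 1341 to 1362) and low in miR-434-5p (25.9, the others 46.0 to 46.8) and miR-223-3p (63.8, the others 76.1 to 78.4). Week 21 replicate 2 was low in the Sertoli cell sum (7416, the others 9222 to 9465) and had 0.885 for miR-299a-3p where the others had 0. Week 6 replicate 3 was low in miR-300-3p (69.6, the others 79.5 to 81.2). Week 6 replicate 4 was high in miR-488-3p (48.2, the others 36.7 to 37.8), in the epithelial sum (3477, the others 687 to 932) and in the miR-183 cluster (1880, the others 191 to 443).

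For 27 miRNAs the change in testis differed from the mean change in the other male organs in edgeR. Upward differences on the log2 scale were 0.88 for miR-143-3p, 1.40 for miR-449a-5p, 0.70 for miR-101a-3p, 0.91 for miR-28-3p, 1.62 for miR-322-5p, 1.22 for miR-450a-5p, 1.51 for miR-298-5p and 0.73 for miR-27a-3p. Others were 0.84 for miR-301a-3p, 1.16 for miR-181a-1-3p, 1.66 for miR-136-5p, 1.07 for miR-132-3p, 0.92 for miR-542-3p, 1.94 for miR-582-3p, 0.92 for miR-155-5p, 1.54 for miR-488-3p and 0.72 for miR-210-3p. The rest were 1.37 for miR-542-5p, 1.31 for miR-212-3p, 0.99 for miR-15b-3p, 2.13 for miR-582-5p, 2.69 for miR-296-5p, 1.55 for miR-293-5p, 2.30 for miR-17-2-3p and 2.17 for miR-6325. Downward were miR-200a-3p at -2.33 and miR-181a-2-3p at -0.76. With lane as a term, those of miR-143-3p, miR-101a-3p, miR-28-3p, miR-301a-3p, miR-449a-5p, miR-15b-3p, miR-6325 and miR-200a-3p were no longer called.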

How the results depend on the processing

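The signs of all 48 called miRNAs were kept in every setting that measured them, while the number of calls moved, and the cause was not tested. Since the settings reuse the libraries in which the 48 were chosen, the kept signs are no independent support. With 27 higher and 21 lower in the main comparison by edgeR, library size without TMM gave 5 and 40, and DESeq2's size factors in edgeR 30 and 26. DESeq2 gave 31 and 27, of which 26 and 20 were shared. A mean of at least 10 counts gave 28 and 28 of 337 tested, and a 2-fold limit 10 and 13. All 16 testis libraries in 1 fit gave 10 and 13. With lane in that edgeR fit there were 0 and 2, beside 29 and 46 at an unadjusted p under 0.05 and 31 and 27 by DESeq2 without lane. The lane with 3 libraries gives no count. Testis contrasts from the fit of all male organs, chosen after seeing the data, gave 27 and 16 without lane and 30 and 14 with it. Leaving out 1 library gave 10 to 26 higher and 9 to 23 lower, with 14 higher without week 6 replicate 3, 15 and 12 without week 21 replicate 2 and 10 and 9 without week 21 replicate 3. Without week 6 replicate 1 there were 14 lower, and without week 21 replicate 1, 18 higher.

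Of the abundant miRNAs that were not called, some changed sign. With library size alone, log2 fold changes were -0.0178 for miR-34c-5p, -0.11 for miR-191a-5p, -0.0245 for miR-22-3p, -0.10 for miR-26a-5p and -0.28 for miR-92a-3p. miR-191a-5p ran from -0.0152 (without week 21 replicate 2) to 0.22 with 1 library left out. miR-181a-5p ran from -0.23 to 0.0758, above 0 without week 6 replicate 3 or 4 (0.07) or week 21 replicate 1 (0.02). It was at 0.0332 in the 16 libraries with lane, and at 0.0661 without and 0.20 with lane in the fit of all male organs. miR-92a-3p, at 0.02 in the main fit of 8 libraries, was at -0.0164 with DESeq2's size factors, -0.0164 by DESeq2, -0.0302 at a mean of 10 counts, -0.00182 in the 16 libraries and -0.71 there with lane, and -0.14 with lane in all male organs. With 1 library left out it ran from -0.0921 to 0.10, below 0 without week 6 replicate 3 (-0.06) or 4 (-0.04) or week 21 replicate 1, 3 (-0.02) or 4 (-0.07).

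The difference from the other organs, 25 upward and 2 downward in edgeR, was 9 and 4 with library size alone, 40 and 2 at a mean of 10 counts, 35 and 5 by DESeq2, 27 and 1 with lane, and 13 and 2 with the removed brain library. Leaving out 1 testis library gave 14 to 20 upward and 0 to 7 downward. Where it gave 0 downward, in edgeR without week 6 replicate 4 or week 21 replicate 3, 10 and 16 were downward at an unadjusted p under 0.05, and DESeq2 with all libraries called 5.

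Replicate number as a block, which would pair libraries of the same number, gave 40 higher and 25 lower, 26 and 19 of them shared. In the check of that pairing, deviations from the age mean correlated at 0.489, -0.143, 0.171 and 0.140 between libraries of the same number. Not every library correlated best with its own number, since week 6 replicates 1 to 4 matched week 21 replicates 1, 1, 4 and 4 best. Across organs the mean r was -0.0208 for 71 pairs of libraries with the same number and 0.00676 for 213 with another. With the rat as a block the difference from other organs was 22 upward and 0 downward in edgeR, with 17 downward at an unadjusted p under 0.05 and 5 by DESeq2 without the block. There the adjusted p was 0.0604 for miR-181a-2-3p, 0.0614 for miR-200a-3p, 0.0544 for miR-101a-3p and 0.0584 for miR-15b-3p and miR-6325, so these 5 were no longer called. With replicate number as a block in the testis fit, the candidate rno_miR_chrX_48878 was called, at 1.20 (adjusted p = 0.00251), as it was in the fit of all male organs, at 1.54 (0.0187) and with lane 1.20 (0.0269).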

Other observations

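Some abundant miRNAs spread widely between libraries of one age. Of 176 miRNAs with a mean of at least 100 counts, 19 had an SD within age above 0.6 on the log2 scale, where the median was 0.235 and the highest 1.08. miR-871-3p of the X-linked cluster was at 25164, 31990, 6036 and 20508 normalised CPM at week 6 and 24442, 8685, 23870 and 9088 at week 21. miR-100-5p was high and low in the same libraries, at 24492, 31598, 6507 and 17888 and at 27005, 10238, 22509 and 8320. miR-10b-5p was at 57821, 68734, 158292 and 148779 and at 81352, 120642, 142877 and 207353. miR-146b-5p, of the stem cell and spermatogonial list, was at 661, 1020, 2947 and 2843 and at 835, 1697, 2360 and 2412. These 4 were chosen after their values were seen.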
